A study of Mus musculus with 3 samples.

Results

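The regions described here are short stretches of the mouse genome that the array maker placed on a gene expression array as putative noncoding transcripts, each marked F or R for a strand. They were chosen by name. Every non-control probe named by an autosomal interval and a strand mark was taken if the interval ended less than 5000 bases after its start on mm9, leaving out 1 stretch of chromosome 16. The rule gave 1441 regions with 3739 probes, of 4607 regions named by position on the array. The intervals ran from 61 to 4970 bases with a median of 653, 731 were marked F and 710 R, and 1062 carried 3 probes. F and R are taken here as the forward and reverse strand, which the files do not define. Whether each interval lies between genes was not checked here, since no mm9 gene positions were used.

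The study compared wild-type C57BL/6J bone marrow-derived macrophages given adiponectin (APN), a hormone made by adipocytes, with untreated ones. Both groups were matured in L929-conditioned medium, a source of the growth factor CSF-1, and were then kept in DMEM with 0.1% FBS. Treatment was 12 µg/ml for 18 h per the treatment labels, while the extraction text writes the same number in mg/ml. There were 3 arrays, which the labels call biological replicates, and on each a treated sample was hybridised with an untreated one in the other dye. Cy3 marked the treated RNA on the first and the last array, and Cy5 marked it on replicate 2. With 3 arrays the precision of each value is limited.

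Much of the mammalian genome outside protein-coding genes is transcribed, often at low levels, and macrophages make many such RNAs when they are stimulated. A long intergenic noncoding RNA is transcribed from 1 strand, is commonly spliced and polyadenylated, and can act on chromatin, on other RNAs or on neighbouring genes. A probe on a noncoding interval can also read an unannotated end of a gene nearby or RNA from the other side of a bidirectional promoter. It measures the RNA of its own strand at its own position and does not delimit the transcript.

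Macrophage identity was checked first. All 7 of the 7 macrophage markers on the array were well above background in both groups on all arrays, and 0 of 3 B cell, 0 of 2 NK, 0 of 3 erythroid and 0 of 2 adipocyte markers were. Signal was also present for 5 of 6 neutrophil, 1 of 3 T cell, 1 of 3 mast cell and 1 of 4 fibroblast markers in both groups, and for 2 endothelial markers of 2 in untreated and 1 in treated samples. The part of other cells in the region values was not tested, and in bulk RNA fewer cells of a type and less RNA per cell cannot be told apart.

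Most short regions had at least 1 probe with a usable signal in these macrophages, though most short-region probes had none. The scanner software marks a spot that is well above background, and a probe was kept if it had this mark in 3 or more of its 6 readings (both dyes on 3 arrays). This left 1281 probes in 781 regions (54.2%). Well above background in untreated channels were 37.8%, 36.8% and 37.4% of the 3739 short-region probes on replicates 1, 2 and 3. In treated channels the shares were 28.6%, 29.4% and 25.2%, lower on every array. The same held over all probes, with 53.4% to 54.3% in untreated and 43.9% to 47.5% in treated channels. A region was represented by its brightest kept probe. Of the 781, 546 were well above background in all 6 readings, 67 in the 3 untreated readings alone and 7 in the 3 treated readings alone. The last 2 sets passed through the group where they were bright, so the filter favoured their direction.

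After 18 h of adiponectin, 222 of the 781 regions were higher and 136 lower at an adjusted p under 0.05 (limma, with Benjamini-Hochberg adjustment over all 28963 kept probes), and 423 were not called. These counts and the shares below include 25 lower calls from regions above background in the untreated readings alone. They also include 7 higher calls from regions above background in the treated readings alone. The filter favoured the direction of both sets, so these calls carry no weight of their own. The higher share was 28.4% against a background of 25.8% of all kept probes, and the lower share was 17.4% against 35.9%. These units differ, since a region counts by its brightest kept probe and the background counts every kept probe. Counted by probe, 25.2% of kept short-region probes were higher, no more than the background, and 21.0% were lower. At an unadjusted p under 0.05 there were 390. At least 2-fold and called were 32 higher regions (4.10%, background 5.92%) and 12 lower ones (1.54%, background 7.93%). The 3 arrays had the same sign for 353 of the 358 called regions. The median region had a log2 ratio, treated over untreated, of 0.04, 0.08 and 0.08 on replicates 1, 2 and 3. The ratios correlated across the 781 regions at r = 0.84 between replicates 1 and 2, 0.92 between 1 and 3 and 0.82 between 2 and 3, given as a description since regions are not replicates. With each array centred on its median in place of loess, limma called 0 regions, although 105 had an unadjusted p under 0.05. That setting moved the median over all kept probes from -0.04 to -0.66 on the log2 scale. The median short region was then at -0.21, above that of all probes. The 2 sets differ in brightness, with 216 of the 781 regions and 4864 of the 28963 probes under a mean log2 intensity of 6.5. Median centring makes no correction by intensity, so this order cannot be read as a response of the regions. The part of brightness in it was not tested.

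Regions above background in all 6 readings are also given apart. Of the 546 regions above background in all 6 readings, 208 (38.1%) were higher and 87 (15.9%) lower. Among all kept probes with 6 such readings, counted by probe and not by region, 30.8% were higher and 36.2% lower. All 32 of the 2-fold rises and 11 of the 12 2-fold falls were in this set.

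Values of short regions lay close to those of longer ones and above those of coding genes. Counted by probe, 25.2% of short-region probes were higher and 21.0% lower, against 26.4% and 20.7% of probes on intervals of 5000 bases or more and 24.0% and 46.1% of probes for coding genes. The median short-region probe minus the median long-region probe was -0.0146, -0.0267 and 0.00077 on replicates 1, 2 and 3 (mean -0.0135 ± 0.0138, SD, n = 3; exact two-sided sign-flip p = 0.50). The median short-region probe lay above the median coding probe by 0.17, 0.18 and 0.25 on the log2 scale (mean 0.20 ± 0.044, SD, n = 3). The exact two-sided sign-flip p was 0.25, the smallest that 3 arrays allow.

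**Figure D1:**
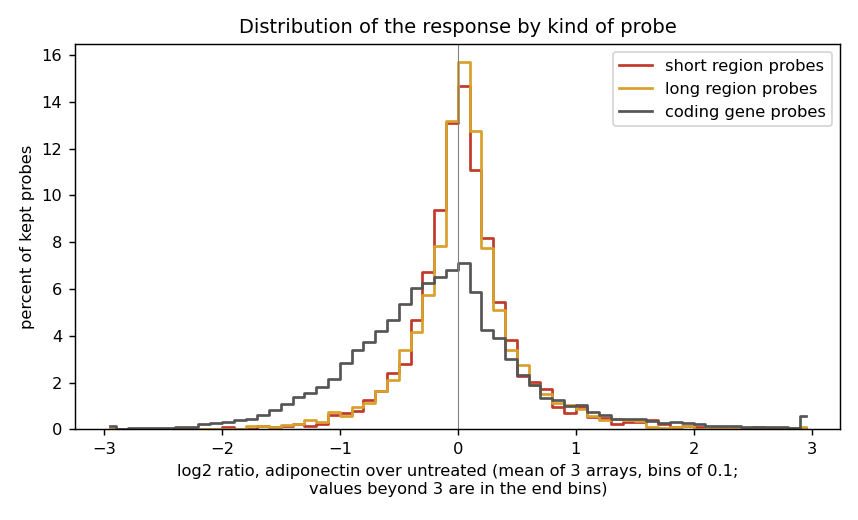
Distribution of the log2 ratio, adiponectin over untreated, for kept probes on short regions, long regions and coding genes (x axis, mean of 3 arrays in bins of 0.1, with values beyond 3 in the end bins; y axis, percent of the kept probes of that kind). The curves of short and long regions nearly coincide around 0, while the coding curve is broader and lies further to the left, with 46.1% of its probes called lower.

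The rises were led by regions on chromosomes 17, 13, 19 and 5. The 12 largest lay between 1.49 and 2.52 on the log2 scale (2.81- to 5.72-fold), with moderated standard errors (SE) of 0.084 to 0.17, standard deviations (SD) over the 3 arrays of 0.13 to 0.52, and adjusted p-values between 7.62e-07 and 8.25e-05 (limma, Benjamini-Hochberg). They spread over 8 chromosomes, 4 marked F and 8 R, with lengths of 452 to 3233 bases. Replicate 3 was the highest of the arrays for all 12, and the dye-swapped replicate 2 the lowest for 7.

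The largest rise was at chr17:64063362-64066067 on the R strand, an interval of 2705 bases. Its brightest probe, A_30_P01029335, read 9.62, 9.80 and 9.95 in treated and 7.29, 7.41 and 7.12 in untreated samples (log2 intensity, replicates 1 to 3). All treated readings lay above all untreated ones. The ratios were 2.33, 2.39 and 2.82, a mean of 2.52 (SE 0.11, SD 0.27, n = 3) or 5.72-fold with an adjusted p of 8.20e-07 (limma, Benjamini-Hochberg). The other 2 probes of the interval were not well above background in any reading. The rise thus rests on 1 probe.

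Next was chr13:21856097-21859200 on the R strand, 3103 bases long and carrying a single probe, A_30_P01023737. Treated samples read 13.02, 13.26 and 13.18 and untreated ones 10.94, 11.10 and 10.72, with no overlap. The log2 ratio was 2.24 (SE 0.094, SD 0.20, n = 3), or 4.71-fold.

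The region at chr19:5834117-5835940 on the R strand rose by similar amounts at every probe it carries. Its 3 probes, A_30_P01019037, A_30_P01025818 and A_30_P01029006, had mean log2 ratios of 2.05, 1.99 and 1.97. The first read 10.07, 10.16 and 10.39 in treated and 8.17, 8.27 and 8.03 in untreated samples. That was a 4.14-fold rise (SE 0.11, SD 0.27, n = 3), with an adjusted p of 2.06e-06 (limma, Benjamini-Hochberg). The rise was therefore measured by 3 probes of the 1823-base interval, whose places within it were not analysed here.

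The same stretch of chromosome 19 shows how far neighbouring intervals can differ; it was chosen for description after its values were seen. In assembly GRCm38.p6 the long noncoding RNA genes Malat1 and Neat1 lie near each other on chromosome 19, and whether the intervals named here on mm9 read those genes was not analysed here. A long interval of each strand, chr19:5771425-5848475, spans 5 short regions. On the R strand its probe A_30_P01028538 rose by 1.20, 1.31 and 1.83 on the 3 arrays, a mean of 1.45, while its other R probe was not well above background. Of 10 kept probes on its F strand, 2 rose (A_30_P01019048 by 0.50, A_30_P01020769 by 0.51) and 1, A_30_P01020604, was lower, at -0.51.

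Short regions inside that interval were as unlike. At chr19:5798135-5800557 on the R strand, probe A_30_P01020935 gave 0.42, -0.42 and 0.86, positive on the arrays with treated RNA in Cy3 and negative on the dye-swapped one. Its 2 companions had the same pattern, and none of the 3 was called. At chr19:5801802-5802597, also R, probe A_30_P01031754 ran the other way, with -0.80, 0.38 and -0.69. Its companion A_30_P01028215 had the same signs at smaller size (-0.31, 0.12 and -0.085), and A_30_P01021970 did not (0.041, 0.047 and 0.17). Both showed a dye coefficient past the threshold in a fit with a dye term, with adjusted p-values of 0.047 and 0.016 (limma, Benjamini-Hochberg), as did 7 of the 781 short regions and 166 of all 28963 probes. At chr19:5841103-5845579 on the F strand, probe A_30_P01029504 rose on all arrays, by 0.71, 0.85 and 0.81 (mean 0.79, SD 0.073, n = 3), and A_30_P01030929 was not called at 0.14.

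On chromosome 5, chr5:139230332-139230823 on the R strand rose at its 3 probes, with means of 1.80, 1.76 and 1.29. The brightest, A_30_P01027405, read 12.64, 12.74 and 12.90 in treated and 11.02, 10.99 and 11.00 in untreated samples. This was a 3.38-fold rise with little spread (SD 0.14, n = 3).

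A further region marked R, chr15:68170864-68171544, rose at 3 probes but unequally, with means of 1.62, 1.59 and 0.67. Its probe A_30_P01021877 read 8.91, 8.79 and 9.0 in treated and 7.23, 7.32 and 7.28 in untreated samples, a 3.08-fold rise. At chr2:128211990-128215223, also R, the means were 1.50, 0.91 and 0.78, and on its second probe, A_30_P01019146, the 3 arrays gave 1.16, 0.33 and 1.25.

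A further 4 named rises rest on single probes. At chr2:151343784-151344246 on the F strand, A_30_P01018274 gave 1.70, 1.44 and 2.00 (mean 1.72), and its 2 companions were not kept. At chr3:87575891-87576343 on the F strand, A_30_P01031878 gave 1.48, 1.33 and 1.71 (mean 1.51), while a kept companion, A_30_P01029917, was at 0.14 and not called. The same division was seen at chr3:95500407-95500904 on the F strand, with 1.33, 1.50 and 1.64 (mean 1.49) on A_30_P01023209 and 0.093 on A_30_P01033348. Probe A_30_P01028216 of chr4:33375464-33377138 on the R strand had the widest spread of the 12, with 1.81, 0.97 and 1.91 (mean 1.57, SD 0.52). Its dye-swapped array was the low one, and its dye coefficient had an adjusted p of 0.039 (limma, Benjamini-Hochberg). Its kept companion, A_30_P01021254, was at 0.14.

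A cluster of short regions on chromosome 17 rose on both strands. Runs of kept short regions with gaps of at most 20 kb, a definition made after the values were seen, gave 35 runs of 3 or more. The one between 39979941 and 39985688 on chromosome 17 was the single run in which every region was higher. On the R strand, chr17:39979941-39981793 rose by 0.66 (0.70, 0.36 and 0.90) and chr17:39980973-39981876, which overlaps it, by 1.59 (1.47, 1.50 and 1.79). On the F strand, chr17:39982023-39983277 rose by 1.07 (1.08, 0.91 and 1.22) and chr17:39983902-39985688 by 1.66 (1.71, 1.18 and 2.09). Probe A_30_P01020514 of the last read 15.47, 15.11 and 15.93 in treated and 13.77, 13.92 and 13.85 in untreated samples. The other 2 probes of that region gave means of 1.70 and 1.70. What these 4 intervals overlap on mm9 was not analysed here, so abundant RNA of an annotated kind, read in both groups, cannot be told apart from noncoding RNA between genes.

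Falls were led by regions on chromosomes 6, 1, 17 and 8. The 12 largest lay between -1.94 and -1.01 on the log2 scale (3.84- to 2.02-fold lower), with SEs of 0.076 to 0.14, SDs of 0.05 to 0.42 and adjusted p-values between 6.09e-07 and 0.00028 (limma, Benjamini-Hochberg). They lay on 9 chromosomes, 8 marked F and 4 R. These 12 are also all the regions that were called and at least 2-fold lower.

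The largest fall was at chr6:3283191-3284581 on the R strand, 1390 bases long. Its probe A_30_P01019832 read 7.51, 7.46 and 7.57 in treated and 9.53, 9.35 and 9.49 in untreated samples. No treated reading reached an untreated one. The ratios of -2.02, -1.89 and -1.92 averaged -1.94 (SE 0.077, SD 0.07, n = 3), which is 3.84-fold lower. The second probe of the region fell as well, to a mean of -1.39.

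Close behind were 2 regions marked F. Probe A_30_P01024227, the only one of chr1:141069536-141072622, read 9.61, 9.52 and 9.59 in treated and 11.32, 11.22 and 11.21 in untreated samples, 3.20-fold lower with an SD of 0.053. Probe A_30_P01021359 of chr17:71183978-71185384 read 7.43, 7.22 and 7.56 against 9.07, 9.0 and 9.16, also 3.20-fold lower. The other 2 probes of the chromosome 17 region fell by 1.43 and 1.50 on the log2 scale. Its 3 probes therefore gave 1 direction and similar sizes.

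Regions with 3 concordant probes made up much of the rest. Region chr8:72671462-72672533 on the F strand had means of -1.50, -1.30 and -0.96, and its brightest probe gave -1.41, -1.47 and -1.63. On chromosome 14, chr14:65430484-65432413 on the R strand had means of -1.09, -1.06 and -1.05. Region chr2:104597982-104600748 on the R strand had means of -1.32 and -1.03 at 2 probes, and the other, A_30_P01021708, was called lower without being well above background in any treated reading.

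A pair of neighbouring F-strand regions fell on chromosome 16. At chr16:43623175-43624069 the 3 probes fell by 1.34, 1.17 and 1.16 on the log2 scale, and the brightest, A_30_P01021665, gave -1.31, -1.55 and -1.17. At chr16:43635730-43639104 they fell by 1.13, 0.69 and 0.61, and A_30_P01026470 gave -1.44, -1.11 and -0.84.

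The last named falls were chr3:21973306-21974266 on the R strand at -1.17, -1.25 and -1.27 (1 probe), chr1:84961943-84962737 on the F strand at -1.05, -1.21 and -1.01 (1 probe), and chr17:17342991-17343357 on the F strand at -1.03, -1.07 and -0.94. Region chr9:13349094-13352732 on the F strand varied most, with -1.01, -1.52 and -0.69 (SD 0.42). Its companions had means of -1.01 and -0.46, and the latter, A_30_P01023375, was not well above background in any treated reading. The second probe of the last chromosome 17 region had a mean of -0.59. The chromosome 1 probe was well above background in 2 of 3 treated readings. In each of these 4 regions, every treated reading of the brightest probe was below every untreated one.

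**Figure D2:**
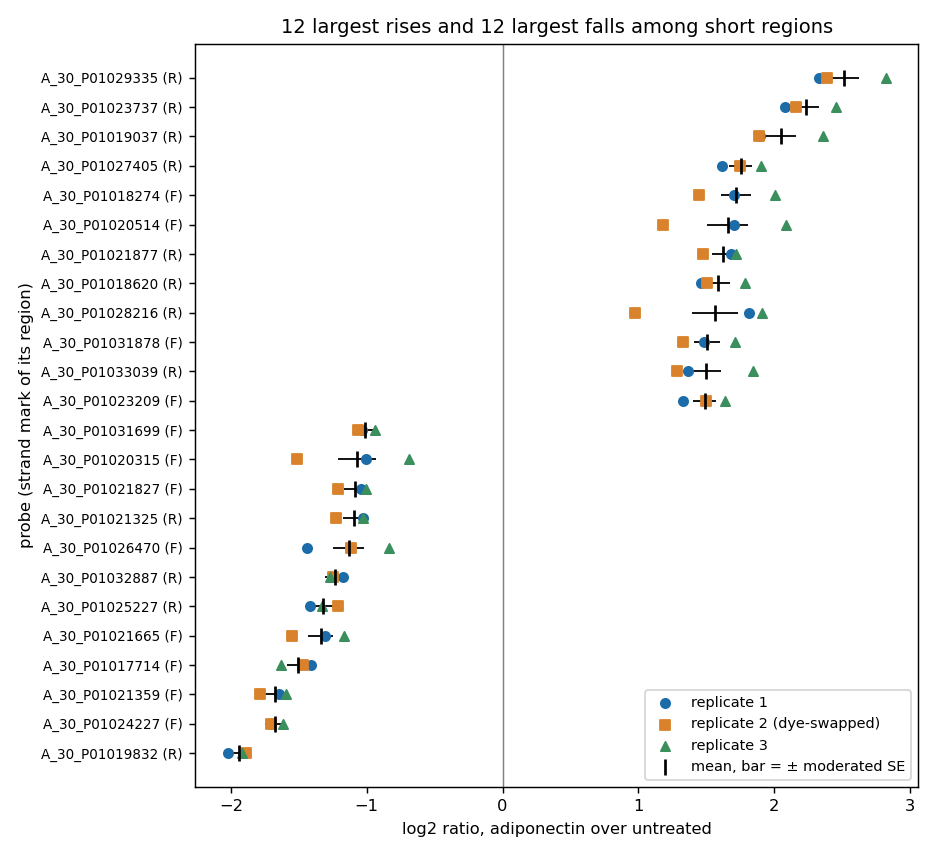
Log2 ratio of adiponectin over untreated (x axis) on each of the 3 arrays for the brightest probe of the 12 largest rises and 12 largest falls among short regions (y axis, probe and strand mark); the vertical bar is the mean and the horizontal bar ± 1 moderated SE. Rises run from 1.49 to 2.52 and falls from -1.94 to -1.01, and the wide points of A_30_P01028216, A_30_P01020514 and A_30_P01020315 are visible. Only called regions with the same sign on all 3 arrays could be named, so the shared sign was set by that choice.

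At the length limit, the longest members kept were called in both directions. Those of 4840, 4875 and 4970 bases were at 0.62, -0.37 and 1.01 on the log2 scale. Each of these values rests on 1 probe. The first region carried no other, and the companions in the others were not well above background in any reading. The intervals just past the limit, both strands of one of 5025 bases and one of 5054 bases, were at 0.04, 0.08 and -0.02. They were dim, well above background in 1, 0 and 1 treated readings, whereas those under the limit were so in all 6 readings. Length itself showed no relation to the response across the 781 regions (Pearson r = -0.031, Spearman rho = -0.057, a description). Regions under 300 bases were called higher in 43.1% of 58 kept, against 23.8% to 30.8% in the 4 longer classes, a difference that was not tested.

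Several regions were well above background in 1 group alone. In 60 of the 67 regions whose representative probe was above background in the 3 untreated readings alone, no probe of the region was well above background in any treated reading. These 60 passed the filter through the untreated group alone, so the filter favoured lower values in them and their calls carry no weight of their own. Not all were lower, with chr10:59385064-59385436 on the F strand at a log2 ratio of 0.047 and not called. Their fold is a bound: the measured group's mean against, on each array, the higher of the dim probe's own signal and the lowest signal among probes well above background. The bound exceeded 1 in 57 of the 60 regions. The largest was chr10:66383049-66386347 on the F strand, with a bound of 1.72-fold lower (mean log2 intensity 6.46 in treated and 7.24 in untreated samples). Next was chr3:113296823-113298691 on the R strand, with a bound of 1.67-fold lower. In the opposite sense, 7 regions were above background in the 3 treated readings alone. Of these, 6 had no probe well above background in any untreated reading, and the filter favoured higher values in them. The largest of these was chr18:46962676-46962824 on the F strand, with a bound of 1.52-fold higher. For the regions whose bounds are given here, the bound equals the fold of the mean log2 ratio itself (-0.78, -0.74 and 0.60). It makes no allowance for the error of that mean.

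Probes on the same region largely gave the same answer. In 331 regions with 2 or 3 kept probes, the log2 ratios of the 2 brightest correlated at r = 0.82 across regions. Both were called in 1 direction in 124 regions and in opposite directions in 3. In 67 the brightest alone was called, in 24 the second alone, and in 113 neither. Among the 169 regions with 3 kept probes, all 3 were higher in 28 and all 3 lower in 36.

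Large rises had less support from companion probes than large falls had. Of the 32 regions called and at least 2-fold higher, 21 had another kept probe. Every other kept probe was called the same way in 12, some were in 1, and none was in 8. Of the 12 regions at least 2-fold lower, 9 had another kept probe, and in all 9 every one was called lower. The difference between rises and falls was not tested.

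In 3 regions, kept probes were called in opposite directions. The examples given here kept their signs on every array, which being called favours. At chr13:65360846-65362134 on the F strand, A_30_P01022003 gave 0.55, 0.71 and 0.71 and A_30_P01032841 gave 1.17, 1.16 and 1.49, while A_30_P01020629 gave -0.54, -0.51 and -0.51. All 3 were called. At chr2:75481116-75481679 on the R strand, A_30_P01022140 gave 0.36, 0.68 and 0.74 and A_30_P01026125 gave -0.49, -0.21 and -0.26, again both called. The range over kept probes exceeded 1 on the log2 scale in 11 regions.

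**Figure D3:**
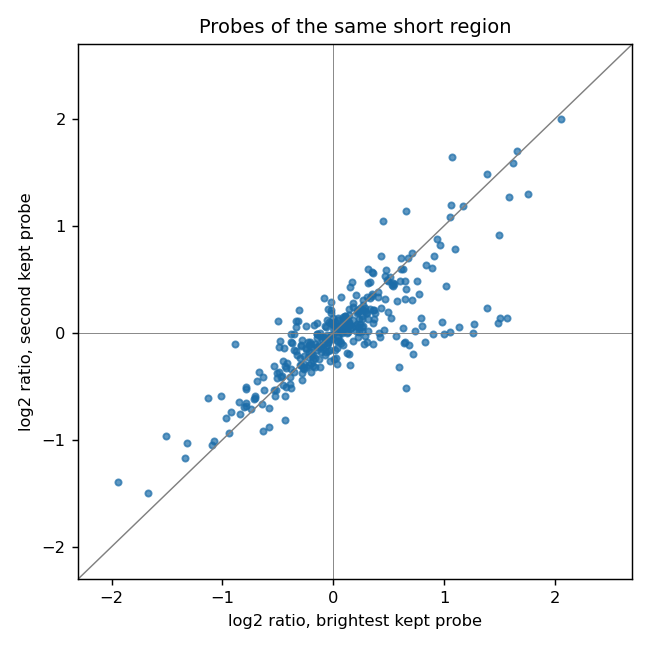
Log2 ratio, adiponectin over untreated, of the brightest kept probe (x axis) and the second brightest (y axis) in 331 short regions, each point 1 region and the line marking equality. Most points follow the line (r = 0.82), and a row of points with x between 1 and 1.6 and y near 0 are rises carried by 1 probe.

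The strands of a short interval could not be compared directly, because 0 of the short intervals had both an F and an R entry on the array, whereas 1041 of the 1942 long intervals did. Pairs of a short region with a long interval that overlaps it were used in their place, a choice made after seeing the data. Of the 1441 short regions 805 overlapped such an interval, and 447 kept ones overlapped a kept one. On the same strand, 176 of 421 pairs (41.8%) differed in log2 ratio at an adjusted p under 0.05, and on the opposite strand 192 of 381 (50.4%), against a background of 50.2% over overlapping regions of any length (limma, Benjamini-Hochberg). Both members were called the same way in 94 same-strand pairs (64 higher, 30 lower) and oppositely in 18. On opposite strands the counts were 51 and 28.

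Log2 ratios of the pairs correlated at r = 0.35 on the same strand and 0.11 on the opposite one, as a description over pairs that share arrays and in part long intervals. The order held on each array, with 0.37, 0.31 and 0.33 on the same strand and 0.13, 0.065 and 0.14 on the opposite. For the 299 short regions with kept long intervals on both strands, the values were 0.34 and 0.11, and 168 of the 299 lay closer to the same-strand interval.

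Most of the widest gaps within pairs came from long intervals in which 1 probe rose steeply. At chr17:64063362-64066067 it was the short region that rose, by 2.52, against 0.21 for the long interval overlapping it on the opposite strand. The F interval chr18:35967933-35986564 had a probe, A_30_P01019445, at 4.07, 4.16 and 4.39, while its other 2 probes were each at 0.11 and not called. Inside it lay the largest run of short regions, 10 in all with 9 on the F strand. Of these 3 were called higher and 0 lower, from A_30_P01027322 at 0.03 to A_30_P01029394 at 0.39. None of the 10 came near the steep probe. Short region chr18:35967988-35968812 on the F strand, for example, differed from it by -4.18 (SE 0.12).

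A similar interval was chr1:134867906-134885481 on the R strand. Its probe A_30_P01028787 gave 3.70, 3.66 and 3.83, and its 8 other kept probes lay between -0.09 and 0.49. The short region chr1:134883350-134883624 inside it rose by 1.17 (1.16, 1.11 and 1.25), and its second probe, A_30_P01032509, by 1.19. Its log2 ratio minus that of the interval's brightest probe was -2.56, and 0.62 when each was averaged over its kept probes.

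Pairs also moved apart with both members called. Short region chr14:44292637-44293014 on the F strand fell at 3 probes, by 0.67, 0.51 and 0.37 on the log2 scale, while the only probe of the F interval around it, A_30_P01017721, rose by 1.46, 1.77 and 1.48. At chr12:110002978-110003360 on the R strand 3 probes fell, by 0.42, 0.32 and 0.28, and probe A_30_P01029815 of the overlapping F interval rose by 1.31, 1.31 and 1.59. The other kept probe of that interval, A_30_P01018214, rose by 0.23. In both cases every array gave the same pair of signs.

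**Figure D4:**
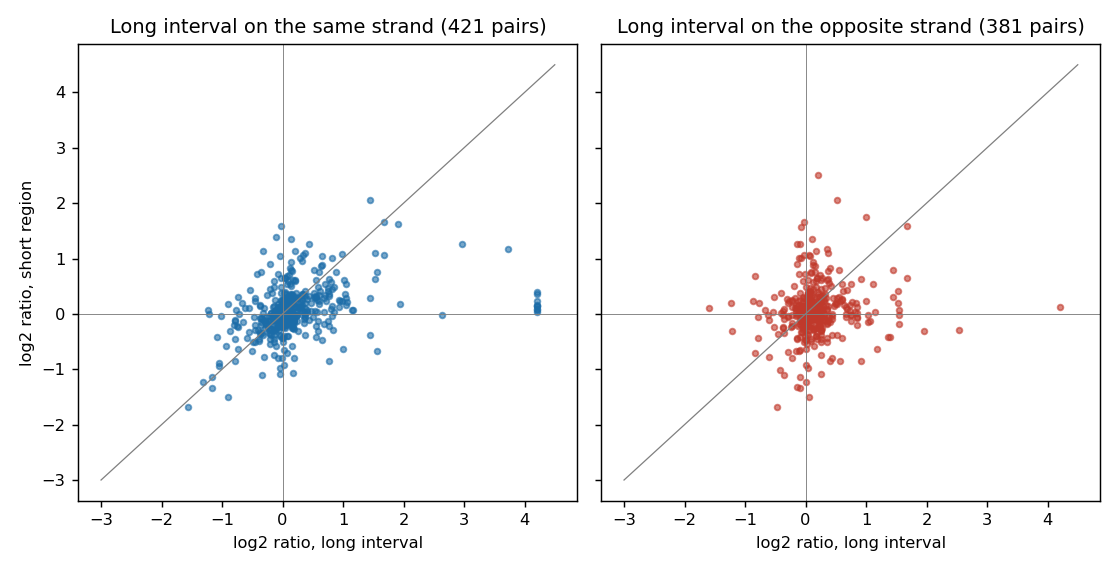
Log2 ratio, adiponectin over untreated, of a long interval (x axis) and of a short region that overlaps it (y axis), for 421 same-strand pairs (left) and 381 opposite-strand pairs (right), with the line of equality. Points follow the line loosely on the left (r = 0.35) and hardly on the right (r = 0.11), and the column at 4.21 is a single long interval on chromosome 18 with its short regions near 0.

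Neighbouring short regions were compared in place of the nearest gene, also a choice made after seeing the data. Of 255 pairs within 20 kb, 77 (30.2%) differed in log2 ratio at an adjusted p under 0.05, against 43.5% for regions of any length at that distance (limma, Benjamini-Hochberg). Both were called the same way in 40 pairs and oppositely in 8. With gaps under 5 kb the log2 ratios correlated at r = 0.51 for 111 pairs on the same strand and 0.60 for 49 pairs on opposite strands. At 5 to 20 kb the values were 0.26 (57 pairs) and 0.36 (38 pairs). At 20 to 100 kb they were 0.24 (71 pairs) and -0.088 (61 pairs).

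Beside the run on chromosome 17, 1 other run had all its regions called in 1 direction. Between 139795171 and 139822985 on chromosome 1, 3 regions marked F were lower, at -0.29, -0.51 and -0.74. The first, chr1:139795171-139796306, gave -0.21, -0.39 and -0.26, and the last, chr1:139822286-139822985, gave -0.86, -0.73 and -0.63. Of the other runs 3 held calls in both directions, 7 held none and 23 held calls in 1 direction beside uncalled regions. One of the mixed runs was at 88384134 to 88398644 on chromosome 1, where values went from -0.53 to 0.89.

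Calls were more frequent among brighter regions. Among 216 regions with a mean log2 intensity under 6.5, 17.1% were called, and the median size of the log2 ratio was 0.097. The share was 43.1% of 232 regions between 6.5 and 7, 62.1% of 190 between 7 and 8, 75.4% of 65 between 8 and 9, and 69.2% of 78 above 9. Over all kept probes the shares in the same classes ran from 26.9% in the dimmest to 73.0% in the brightest, with 78.8% between 8 and 9, so the trend was that of the whole array. Above 9 the median size was 0.51. The median SE over the 781 regions was 0.083 on the log2 scale.

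**Figure D5:**
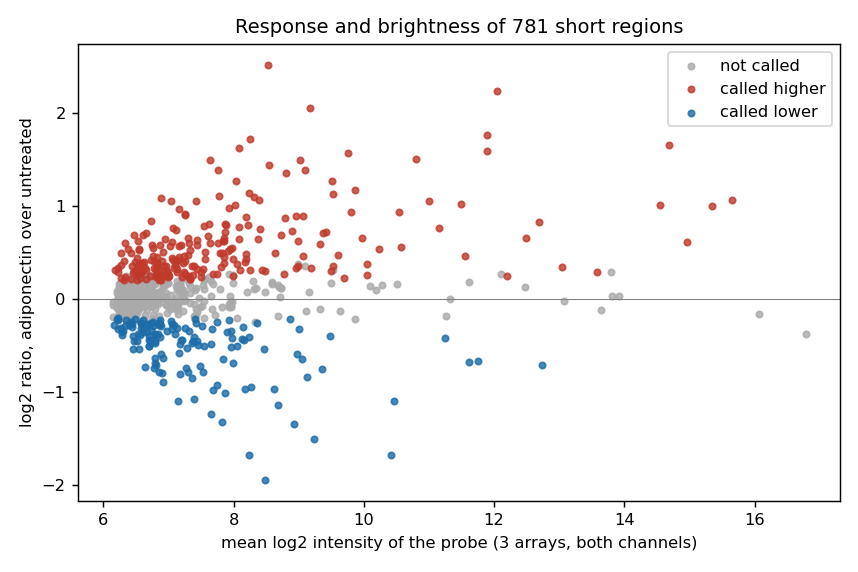
Log2 ratio, adiponectin over untreated (y axis), against the mean log2 intensity of the representative probe over both channels of 3 arrays (x axis) for the 781 kept short regions, coloured by call. Uncalled regions crowd at the dim end below 7, and called ones of both directions spread upward in size from there.

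Named long noncoding RNAs were measured by their own probes on the same arrays. Of 32 listed, 19 were on the array and 17 kept, of which 7 were higher and 5 lower, beside 25.8% and 35.9% of all kept probes, with a median log2 ratio of 0.13. Malat1, an abundant nuclear RNA of splicing speckles, rose by 1.15, 1.27 and 1.87 (mean 1.43). Rmrp, the RNA of the RNase MRP complex, rose by 1.14, 1.52 and 1.49 (mean 1.38), and Pvt1, encoded beside Myc, by 0.68, 0.96 and 0.57 (mean 0.74). Peg13, an imprinted transcript, fell with values of -1.48, -1.64 and -1.50 (mean -1.54). Neat1, the scaffold of paraspeckles, fell on average by 1.22 but unevenly, with -1.46, -1.88 and -0.31 on the 3 arrays.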

How the data were processed

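Per the file headers, the deposited scanner files come from Agilent Feature Extraction 10.7.3.1 with probes placed on mm9, and hold a median signal intensity and background intensity for each spot and dye, a log10 ratio of red over green, and flags (other columns) that mark outlier spots and spots well above background. The authors also deposited log2 values per array, by steps not given in the sources used here. Across spots these correlated with loess-normalized treated over untreated ratios without background correction (r = 0.994, 0.990 and 0.992), so their direction is known and their background handling is not. The files place all 3 arrays on 1 slide with 1 scan, so slide and scan do not split them. Whether culture, RNA preparation or labelling differed between the replicates was not analysed here.

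Intensities were corrected with normexp (offset 50) and normalized by loess within arrays in limma 3.58.1 (R 4.3.3), with control and outlier spots at weight 0, and given as treated over untreated. Levels for 1 dye are log2 intensities after a further Aquantile step between arrays. Outlier spots were dropped and spots of a probe averaged; no kept short region had an outlier spot. Of 55681 probes, 28963 were kept. The 3 ratios were tested against 0 with lmFit and eBayes (prior degrees of freedom 5.89, residual 2). The moderated SE draws each variance towards that prior. Pairs were tested as the difference of both ratios on each array.

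On simulated data for treated over untreated (28963 probes, 100 changed by each size), with each probe's variance drawn from the fitted prior, 99% of changes of 1 and 40% of changes of 0.5 on the log2 scale were recovered, and 5.44% of calls were false. With each variance set to the moderated value, 100% and 92% were recovered but 10.7% of calls were false, above the nominal 5%. A limit on false calls that had been set for the latter simulation was not met and was dropped, and the former was added afterwards. Far fewer probes were changed in the simulations than were called in the data (25.8% higher and 35.9% lower). The adjusted threshold depends on that share, so the simulated rates do not give the recovery or the false calls of the real comparison.

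The text names the 12 largest called rises and falls, the members nearest the length limit and, for overlaps, the widest pairs with at most 1 per long interval, the last a rule made after the values were seen. A listed gene is given by its brightest kept probe. Members and lists were chosen with earlier results of these data known. F against R of an interval, the nearest gene and region sequences were not analysed here, since no mm9 genome or gene positions were used. On chromosome X, 81 such regions were left out by the rule.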

Additional observations from a re-analysis of the deposited data

How the results depend on the processing

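Counts of called regions (222 higher, 136 lower) were recomputed under 14 other settings, and 0 regions were called in the opposite direction in any of them. Median centring of each array in place of loess called 0 higher and 0 lower, and the pair counts went to 49 on the same strand, 52 on the opposite strand and 11 for neighbours; the cause was not tested. Under it 26 of the 27 named regions kept their sign and lost the call, and that of probe A_30_P01019823 turned to -0.15 on the log2 scale. The scanner software's ratio called 117 same-strand pairs and 37 neighbour pairs. Without the filter on dim probes the pair counts were 289, 304 and 171, from more pairs tested. Requiring all 6 readings, which tests fewer regions, left 84 lower regions, 115 opposite-strand pairs and 44 neighbour pairs, and a gap within 5 kb also left 44 neighbour pairs. Averaging the kept probes turned the pair of A_30_P01032960 and A_30_P01028787 to 0.62. Leaving out 1 array gave 167 to 228 higher and 95 to 132 lower regions. In all settings but median centring, 60.3% to 70.7% of calls were higher. Every named region that had a value kept its call under the settings other than median centring. Dim signal limits regions near background, where a missing call says little.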
